A study of Rattus norvegicus with 16 samples.

Results

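Messenger RNA of 10 genes that code LIM-domain proteins of muscle was followed in rat aortic smooth muscle cells after Nat10 knockdown. They are Csrp1, Csrp2, Crip2, Fhl1, Fhl2, Pdlim1, Pdlim5, Pdlim7, Ldb3 and Lpp, taken by name, and each matched 1 of the 32883 Ensembl genes in the deposited expression table. The members were chosen by name with the input FPKM of the same knockdown in view, so their expression values are given as a description and not as a test. Of the 10, 9 reached a mean of at least 1 FPKM over the 6 input libraries, and Ldb3 did not. FPKM are fragments per kilobase of gene length, divided by a scale factor of each library.

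The cells were primary aortic vascular smooth muscle cells (PAVSMCs), grown from rat aorta in DMEM/F12 with 20% fetal bovine serum. The knockdown group had received Adenovirus-shRNA-NAT10 for 48 h, and the control group Adenovirus-control, a virus with a control shRNA, for the same time. Both groups thus carried a virus. Input RNA was sequenced from 3 knockdown and 3 control libraries, and RNA pulled down for N4-acetylcytidine (ac4C) from another 3 and 3. Wild type cells with no virus gave 3 libraries of RNA pulled down with NAT10 protein (NAT10 RIP), and their non-immunoprecipitated library was not analysed here. The labels give no strain, age or number of rats and no hairpin sequence. The replicates are called biological repeats, but nothing says that they came from separate animals or cultures, so the spread between them may be technical.

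A LIM domain is a zinc-binding fold that carries no enzyme activity and serves to hold other proteins. In muscle such proteins sit on alpha-actinin, zyxin and actin, at Z-discs in striated muscle and at dense bodies and focal adhesions in smooth muscle, and some also move to the nucleus. NAT10 is an acetyltransferase that writes ac4C into RNA. The series was made to ask what NAT10 does in the proliferation and migration of these cells.

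The knockdown libraries held 6417941 to 7468528 recovered fragments and the control libraries 8171176 to 12065991. Nat10 itself stood at 4.38, 3.68 and 4.58 FPKM in knockdown libraries 1 to 3, against 7.69, 9.22 and 9.95 FPKM in control libraries 1 to 3. By limma over 13450 genes, 0 genes passed an adjusted p of 0.05 (0.00% called), the LIM-domain genes and Nat10 included. At an unadjusted p under 0.05, 935 genes (6.95%) were lower and 744 (5.53%) higher in limma. On the first principal component (40.8% of the variance) knockdown libraries 1 to 3 stood at -5.2, -70.0 and 25.2, and control libraries 1 to 3 at -10.3, 30.9 and 29.5, so that knockdown library 2 and control library 1 lay away from the rest of their groups. Control libraries 2 and 3 stood close together there. So they did in Fhl1 (212 and 219 FPKM) and Csrp1 (291 and 288 FPKM), with control library 1 at 328 and 400.5 FPKM. Among the 9 tested genes of the set, Csrp2 alone had control library 3 nearer to control library 1, while some LIM-domain genes outside the set had it too. Whether these were separate cultures is not given, so a control SD or SE may rest on fewer than 3 independent values. Of 8 smooth muscle markers, 7 passed the expression filter, and Des, the muscle intermediate filament gene, stayed under 0.5 FPKM. Their summed level was 682 to 3282 FPKM in knockdown libraries and 4164 to 5694 FPKM in controls. Tagln and Acta2 made up most of that sum in every library, and Cnn1 and Synpo2 overlapped between the groups. Markers of adventitial fibroblasts summed to 144 to 199.9 FPKM in knockdown libraries and 179.9 to 280.3 FPKM in controls. Lum was the largest part of that sum in every library and overlapped between the groups. Of the 6 fibroblast markers, 4 were lower without overlap, as were 10.9% of all genes tested. Leukocyte markers summed to 7.72 to 27.0 FPKM in knockdown libraries and 7.80 to 19.5 FPKM in controls, endothelial and Schwann cell markers to under 5 FPKM in every library, and Cd3e, a T cell marker, was listed at 0 throughout. Fewer cells of a type and less RNA per cell cannot be told apart in these bulk libraries, and the part of the marker levels in the results was not tested.

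Csrp1 had the highest level of the set and Ldb3 the lowest in both groups. In knockdown cells the order of the mean FPKM was Csrp1, Pdlim1, Pdlim5, Fhl1, Pdlim7, Lpp, Fhl2, Crip2, Csrp2 and Ldb3. In control cells it was Csrp1, Fhl1, Pdlim5, Pdlim1, Pdlim7, Lpp, Crip2, Fhl2, Csrp2 and Ldb3. Neighbours from Pdlim1 to Crip2 in the knockdown order had overlapping ranges, as had the neighbours from Csrp1 to Pdlim7 and the pair Lpp and Crip2 in the control order. Fhl1 thus held the fourth place after knockdown and the second in controls, and Crip2 the eighth and the seventh. Among the 13450 genes tested, Csrp1 ranked 264 by mean level in knockdown cells and 187 in controls, Fhl1 551 and 238, and Crip2 2836 and 1019.

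**Figure D1:**
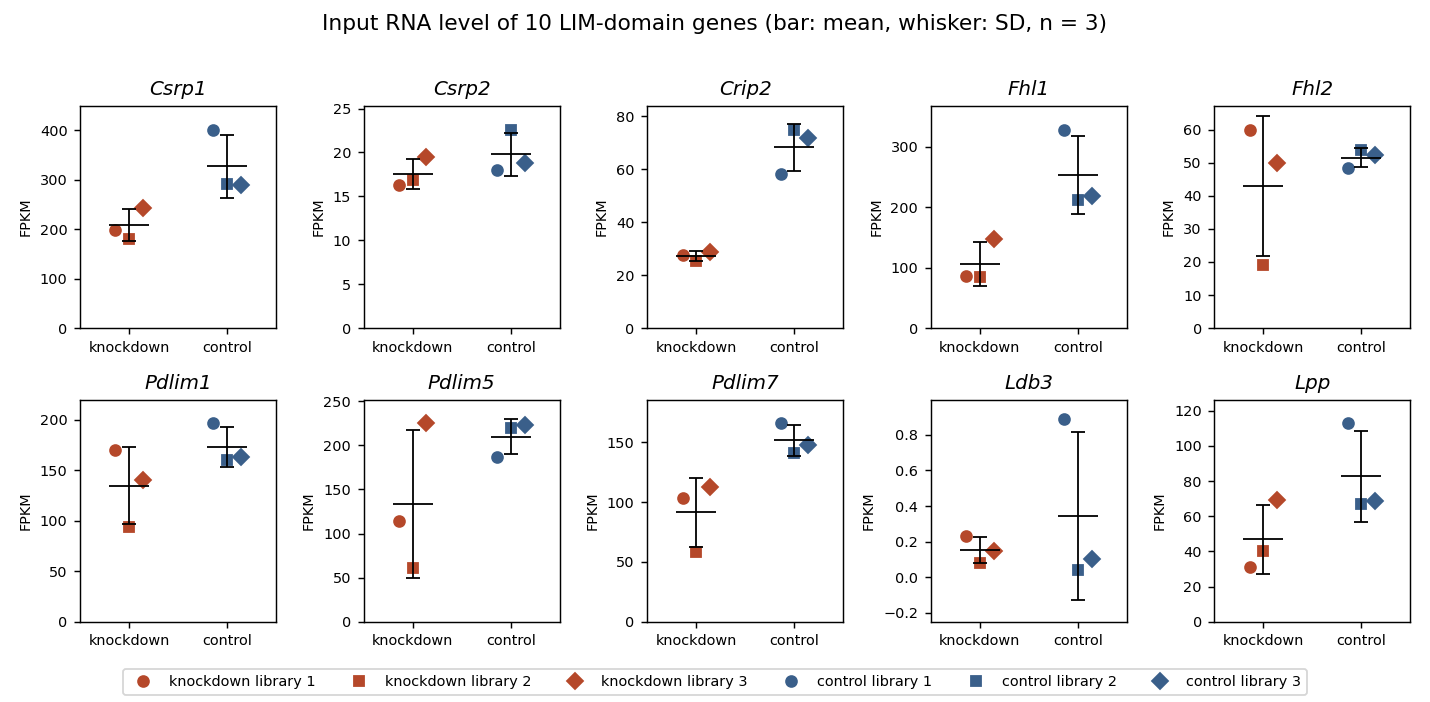
FPKM of the 10 genes in the 3 knockdown and 3 control input libraries, with the mean and SD of each group (n = 3) and a separate axis per gene. For Csrp1, Crip2, Fhl1 and Pdlim7 the highest knockdown library lies under the lowest control library.

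Among the cysteine-rich proteins, all knockdown values of Crip2 and Csrp1 lay under all control values, while Csrp2 differed little. Crip2, a small LIM protein of vascular cells, stood at 27.5, 25.2 and 28.8 FPKM in knockdown libraries and at 58.1, 74.8 and 71.8 FPKM in controls. The knockdown libraries lay close together and well under the controls, and the mean was 27.1 ± 1.83 FPKM after knockdown and 68.2 ± 8.94 FPKM in controls (SD, n = 3 each). The log2 change of Crip2 was -1.29 (SE 0.165), where log2 changes are knockdown minus control on log2(FPKM + 1). It was -1.40 to -1.22 when any 1 library was left out. The values rested on 232, 237 and 229 recovered fragments in knockdown libraries and on 771, 675 and 687 in controls.

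Csrp1 codes a protein of actin bundles that binds alpha-actinin and zyxin. It stood at 199, 180.4 and 243 FPKM in knockdown libraries and at 400.5, 291 and 288 FPKM in controls. The groups did not overlap, and control library 1 was the highest of all. The mean of Csrp1 was 207 ± 32.3 FPKM after knockdown and 327 ± 64.1 FPKM in controls (SD, n = 3 each), with a log2 change of -0.65 (SE 0.224). Csrp2, also called SmLIM, codes a close relative found in arterial smooth muscle. It stood at 16.3, 16.8 and 19.5 FPKM in knockdown libraries and at 18.0, 22.6 and 18.8 FPKM in controls, and these ranges overlapped. Its log2 change was -0.16 (SE 0.166), or -0.069 without control library 2 and -0.017 with libraries scaled to equal totals. The FPKM ratio of Csrp1 to Csrp2 within a library was 12.2, 10.7 and 12.5 in knockdown cells and 22.2, 12.9 and 15.4 in controls, without overlap.

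Fhl1 and Fhl2 code proteins that consist of LIM domains alone, and each has at least 1 start region with a feature that most start regions lack. Serum response factor, with its partner myocardin, acts on many smooth muscle genes through a short A/T-rich element called the CArG box. Windows of 300 bases, 250 before and 50 after each annotated start, were taken from RefSeq on assembly GRCr8, and 9 of the 10 genes matched by symbol, with 11 windows. On both strands a CArG box stood in 4 of these 11 windows, in 3 genes, against 1.64% of the 33469 windows of all genes. These 4 windows are shown because they carry the element, in lower case with the CArG box in capitals. The upstream Fhl1 window is chrX:139638246-139638545 on the plus strand, the Fhl2 windows are chr9:52923277-52923576 and chr9:52954491-52954790 on the minus strand, and the Ldb3 window is chr16:9924630-9924929 on the minus strand.
Fhl1: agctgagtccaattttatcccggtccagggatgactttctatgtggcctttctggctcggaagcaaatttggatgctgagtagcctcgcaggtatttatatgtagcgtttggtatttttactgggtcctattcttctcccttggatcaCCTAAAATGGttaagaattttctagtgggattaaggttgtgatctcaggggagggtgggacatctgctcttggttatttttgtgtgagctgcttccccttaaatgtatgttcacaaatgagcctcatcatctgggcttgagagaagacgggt
Fhl2, downstream start: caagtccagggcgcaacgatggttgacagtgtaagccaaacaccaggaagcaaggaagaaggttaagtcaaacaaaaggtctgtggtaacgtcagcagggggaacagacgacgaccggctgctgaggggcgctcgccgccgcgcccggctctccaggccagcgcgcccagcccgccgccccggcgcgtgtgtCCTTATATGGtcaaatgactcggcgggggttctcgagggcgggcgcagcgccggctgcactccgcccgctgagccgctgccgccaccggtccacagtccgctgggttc
Fhl2, upstream start: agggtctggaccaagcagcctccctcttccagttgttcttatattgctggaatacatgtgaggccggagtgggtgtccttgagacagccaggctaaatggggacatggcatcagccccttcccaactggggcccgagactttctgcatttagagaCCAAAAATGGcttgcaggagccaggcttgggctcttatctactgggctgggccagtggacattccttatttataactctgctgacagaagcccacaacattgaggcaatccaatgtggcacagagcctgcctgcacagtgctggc
Ldb3: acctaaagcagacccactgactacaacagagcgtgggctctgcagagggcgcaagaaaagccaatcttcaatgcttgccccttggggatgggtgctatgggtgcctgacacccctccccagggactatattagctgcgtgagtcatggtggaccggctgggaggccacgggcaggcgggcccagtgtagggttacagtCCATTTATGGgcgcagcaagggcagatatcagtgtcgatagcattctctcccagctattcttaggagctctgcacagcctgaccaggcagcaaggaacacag

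The CArG box of Fhl1 reads CCTAAAATGG and begins at base -102 from the start, and those of Fhl2 read CCTTATATGG at -58 and CCAAAAATGG at -95. In Ldb3 it reads CCATTTATGG at -52. The downstream Fhl1 window held no CArG box, and which start these cells use was not tested. The MCAT element, searched as CATTCC on both strands, was in 1 of the 11 windows, that of the upstream Fhl2 start, against 14.2% of all windows. The GC box, searched as GGGCGG on both strands, was in 6 of the 11 windows against 33.1% of all. No CArG box in the windows overlapped a match to either of these. The Crip2 window, chr6:138041925-138042224 on the plus strand, held 5 GC boxes, of which a pair overlaps, and no CArG box. It is shown as a start region without a CArG box from a gene whose change was close to that of Fhl1, with the GC boxes in capitals.
Crip2: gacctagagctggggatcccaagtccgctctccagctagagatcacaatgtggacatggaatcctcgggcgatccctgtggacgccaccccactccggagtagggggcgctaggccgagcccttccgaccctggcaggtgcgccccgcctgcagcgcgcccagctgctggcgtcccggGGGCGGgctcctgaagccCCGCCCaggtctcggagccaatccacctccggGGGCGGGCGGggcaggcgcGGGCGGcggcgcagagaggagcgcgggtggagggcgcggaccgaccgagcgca

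A match describes the letters of a window and not a site in use, and a window with no match says nothing about the factor. Of the 3 genes with a CArG box in a window, Fhl1 differed between the groups without overlap, Fhl2 overlapped and Ldb3 was hardly detected. Crip2, with a change close to that of Fhl1, had none in its window.

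Fhl1, which in striated muscle binds the sarcomere and in many cells cofactors of transcription, had no knockdown value within the control range. It stood at 85.4, 84.4 and 148 FPKM in knockdown libraries and at 328, 212 and 219 FPKM in controls. Knockdown library 3 was the nearest to the controls and control library 1 the highest. The mean of Fhl1 was 106 ± 36.2 FPKM after knockdown and 253 ± 65.0 FPKM in controls (SD, n = 3 each), so that knockdown cells held 0.418 of the control level. The log2 change was -1.27 (SE 0.293), on 1656, 1826 and 2698 fragments in knockdown libraries and 10004, 4395 and 4814 in controls.

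Fhl2, a partner of integrins in the cytoplasm and of serum response factor in the nucleus, did not follow Fhl1. It stood at 60.0, 19.2 and 49.9 FPKM in knockdown libraries and at 48.3, 53.8 and 52.5 FPKM in controls. Knockdown library 1 lay above every control and knockdown library 2 far below, so the groups overlapped. The mean of Fhl2 was 43.0 ± 21.3 FPKM after knockdown and 51.5 ± 2.85 FPKM in controls (SD, n = 3 each). Its log2 change of -0.40 (SE 0.398) rested on knockdown library 2, without which it was 0.09. The FPKM ratio of Fhl1 to Fhl2 was 1.42, 4.40 and 2.96 in knockdown libraries and 6.79, 3.95 and 4.17 in controls, which overlapped.

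PDZ and LIM proteins bring kinases and other LIM partners to alpha-actinin. Those of the set were lower on average, and among them Pdlim7 alone did not overlap between the groups. Pdlim7, also called Enigma, stood at 103, 58.7 and 112 FPKM in knockdown libraries and at 166, 141 and 147 FPKM in controls. The groups did not overlap, and knockdown library 2 was the lowest. The mean of Pdlim7 was 91.3 ± 28.6 FPKM after knockdown and 151 ± 12.7 FPKM in controls (SD, n = 3 each), with a log2 change of -0.77 (SE 0.267), or -0.49 without knockdown library 2.

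Pdlim5, also called Enh, which binds protein kinase C, stood at 114, 61.0 and 225 FPKM in knockdown libraries and at 187, 219.9 and 223 FPKM in controls. Knockdown library 3 was the highest of all 6, so the groups overlapped despite a log2 change of -0.84 (SE 0.437). Without knockdown library 2 that change was -0.38. Pdlim1, also called CLP36, stood at 170, 94.3 and 140.1 FPKM in knockdown libraries and at 196, 160.2 and 163 FPKM in controls. Knockdown library 1 lay within the control range, and the log2 change was -0.39 (SE 0.250), or -0.16 without knockdown library 2. The FPKM ratio of Pdlim7 to Pdlim1 was 0.608, 0.622 and 0.801 in knockdown libraries and 0.844, 0.882 and 0.906 in controls, without overlap. That of Pdlim5 to Pdlim1 was 0.675, 0.647 and 1.60 in knockdown libraries and 0.951, 1.37 and 1.37 in controls, which overlapped. How often the ratio of a gene pair separates the groups was not counted, for these or for Csrp1 and Csrp2.

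Ldb3, also called ZASP, joins alpha-actinin at the Z-disc of heart and skeletal muscle and was hardly detected. It had 10, 4 and 6 recovered fragments in knockdown libraries and 61, 2 and 5 in controls, or 0.229, 0.0823 and 0.146 FPKM against 0.890, 0.0430 and 0.101 FPKM. Control library 1 held most of its fragments, and the groups overlapped. Markers of striated muscle summed to 2.18 to 4.86 FPKM in knockdown libraries and 0.686 to 6.63 FPKM in controls. Ldb3 thus stood apart from the other 9 genes in level, at under 1 FPKM in every library.

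Lpp codes a zyxin relative of focal adhesions and dense bodies that smooth muscle makes in quantity. It stood at 31.3, 40.5 and 69.0 FPKM in knockdown libraries and at 113, 66.8 and 68.6 FPKM in controls. Knockdown library 3 reached the level of control libraries 2 and 3, so the groups overlapped, and control library 1 was well above the rest. The mean of Lpp was 46.9 ± 19.7 FPKM after knockdown and 82.7 ± 26.0 FPKM in controls (SD, n = 3 each), with a log2 change of -0.84 (SE 0.337), or -0.59 without knockdown library 1 and -0.60 without control library 1.

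**Figure D2:**
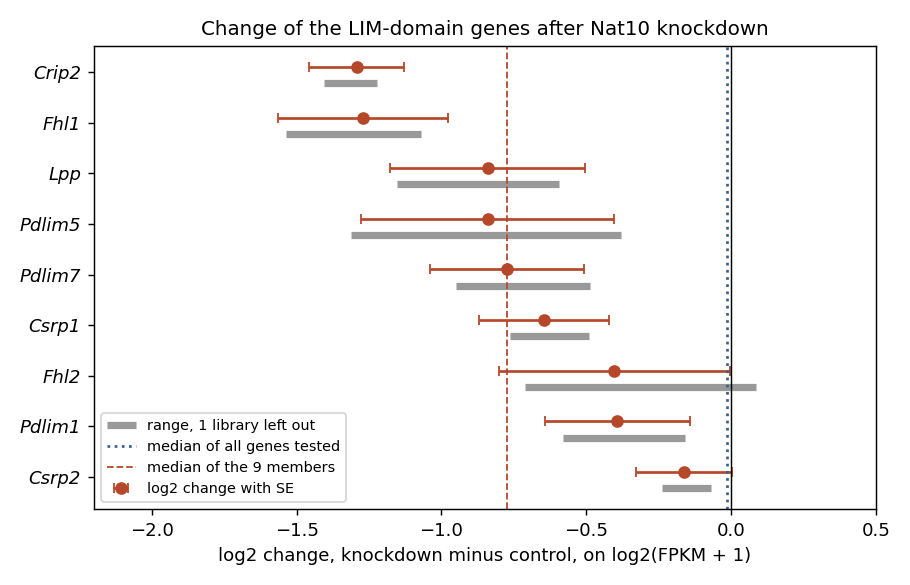
Log2 change of the 9 tested genes, knockdown minus control on log2(FPKM + 1), with its SE, above a grey bar for the range when 1 library is left out. The dashed line marks their median of -0.77 and the dotted line the median of all genes tested, -0.015. The grey bar of Fhl2 crosses 0.

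All 9 tested genes had a negative log2 change, against 51.4% of all genes tested, with a median of -0.77 against -0.015. Rescaling to equal totals moved the median of all genes to 0.12 and that of the 9 to -0.62, all of them still negative. The groups did not overlap for 4 of the 9, Csrp1, Crip2, Fhl1 and Pdlim7, where 10.9% of all tested genes were lower without overlap. At an unadjusted p under 0.05, 5 of the 9 were lower in limma, namely these 4 and Lpp, against 6.95% of all genes tested, and 0 passed after adjustment. With library quality weights Fhl1 and Crip2 passed an adjusted p of 0.05 in limma, as lower, among 1.60% of all genes tested. The weights were 1.35, 0.24 and 0.42 for knockdown libraries 1 to 3 and 0.56, 3.80 and 3.57 for control libraries 1 to 3. That fit thus leaned most on control libraries 2 and 3. Because the set was put together with this contrast in view, nothing is read from these shares of genes. The 5 became 2 without control library 1, 3 without control library 3 and 3 without knockdown library 1. Over all 13450 genes, 772, 484 and 678 were lower at an unadjusted p under 0.05 in limma with the same libraries left out. The count without overlap became 7 without knockdown library 3. With fewer libraries the groups separate more easily, and the share over all genes was not counted for that setting. Leaving out knockdown library 2 gave a median of -0.49, and leaving out control library 1 as well gave -0.42.

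The 3 knockdown libraries did not stand equally far from the controls. The median deviation of the 9 genes from the control mean was -0.70, -1.35 and -0.30 on the log2 scale in knockdown libraries 1 to 3, against 0.13, -0.10 and -0.07 in control libraries 1 to 3. Over all genes tested the median deviation was between -0.013 and 0 in every library. The scaling of the deposited FPKM can by itself bring this median near 0. Its divisor lay above the fragment total in knockdown libraries 1 and 2 and below it in the rest. The smooth muscle markers deviated by -1.68, -1.50 and -0.82 in the same knockdown libraries and by 0.37, -0.19 and -0.18 in controls. Knockdown library 3 was thus the nearest to the controls for both lists, and the part of the smooth muscle marker levels in the LIM gene values was not tested. Across the 6 libraries the 36 pairs of LIM genes had Pearson correlations of 0.216 to 0.984, with a median of 0.706, and the closest pair was Csrp1 and Fhl1. These 6 points share the group difference and the libraries, so the correlations only describe them.

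**Figure D3:**
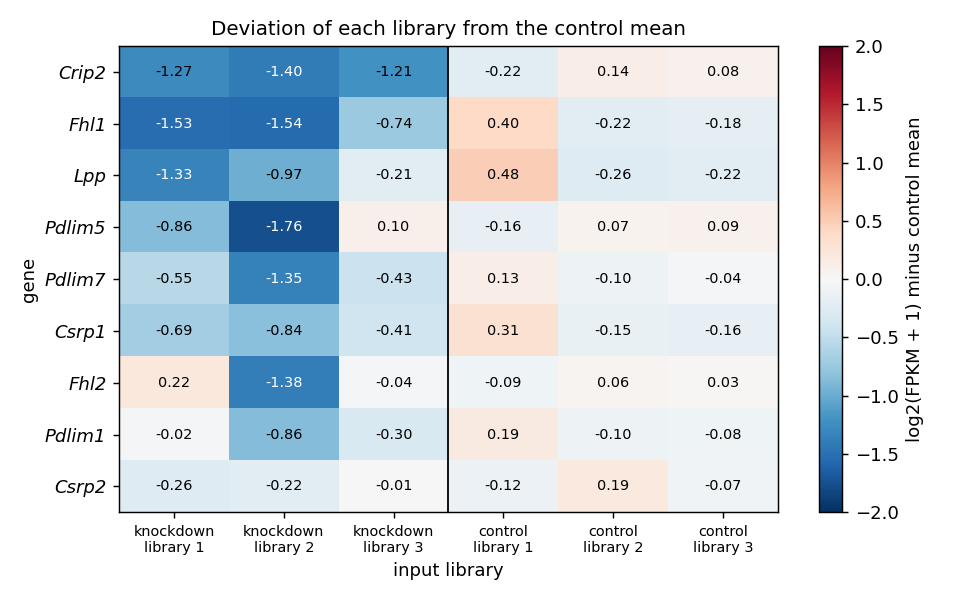
Deviation of log2(FPKM + 1) from the control mean for the 9 tested genes (rows) in the 3 knockdown and 3 control libraries (columns), red above and blue below the control mean. Crip2 is low in all 3 knockdown libraries (-1.27, -1.40 and -1.21), while Fhl2 is low in knockdown library 2 alone (-1.38).

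The rest of the LIM-domain family stood nearer to the controls in its median and held genes with larger changes. Because the set was chosen with this contrast in view, nothing is read from the gap between the medians. Of 58 other LIM-domain genes in the table, 37 passed the expression filter, with 28 negative and 9 positive log2 changes, where 51.4% of all genes tested were negative, and a median of -0.26. By limma 0 of the 37 passed after adjustment, and at an unadjusted p under 0.05, 6 were lower and 0 higher, against 6.95% and 5.53% of all genes tested. The groups did not overlap for 7 lower and 1 higher, against 10.9% and 9.63%. With libraries scaled to equal totals 22 of the 37 were negative, and the median was -0.15. With all libraries the most negative changes were those of Lims2, a partner of integrin-linked kinase, at 4.04, 1.96 and 10.3 FPKM in knockdown libraries and 17.7, 15.7 and 14.5 FPKM in controls (log2 -1.61, SE 0.453), and of Tgfb1i1, the paxillin relative Hic-5. Tgfb1i1 stood at 42.3, 10.7 and 75.4 FPKM in knockdown libraries and at 87.7, 100.7 and 97.8 FPKM in controls (log2 -1.51, SE 0.620). Neither gene overlapped between the groups. Without knockdown library 2 the change was -1.16 for Lims2 and -0.74 for Tgfb1i1, while that of Pdlim3 was -1.21.

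Pdlim3, the actinin-associated LIM protein of muscle, stood at 6.56, 4.01 and 7.59 FPKM in knockdown libraries and at 18.4, 18.6 and 15.8 FPKM in controls (log2 -1.44, SE 0.236), without overlap. Crip1, a small relative of Crip2, stood at 25.1, 4.23 and 20.4 FPKM in knockdown libraries and at 12.02, 42.6 and 43.5 FPKM in controls, which overlapped. Its log2 change was -1.04 (SE 0.718), or -0.31 without knockdown library 2 and -1.62 without control library 1. On the positive side stood Limk2 and Limk1, the kinases that inactivate cofilin, at log2 0.38 each (SE 0.178 and 0.393). The zyxin relative Trip6 (0.28, SE 0.213) and Tes (0.23, SE 0.183) were also positive. Limk2 stood at 13.0, 13.2 and 9.70 FPKM in knockdown libraries and at 8.99, 8.98 and 8.61 FPKM in controls, and was higher without overlap, as were 9.63% of all genes tested, while the other 3 overlapped. Limk1 stood at 9.39, 24.9 and 9.44 FPKM in knockdown libraries and at 13.5, 8.34 and 8.47 FPKM in controls. Its positive change rested on knockdown library 2, without which it was -0.06, and that of Trip6 was 0.11 without knockdown library 1. The change of Tes was 0.15 without control library 2. Csrp3, the striated muscle relative of Csrp1, had 6, 1 and 0 fragments in knockdown libraries and 0 in each control.

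**Figure D4:**
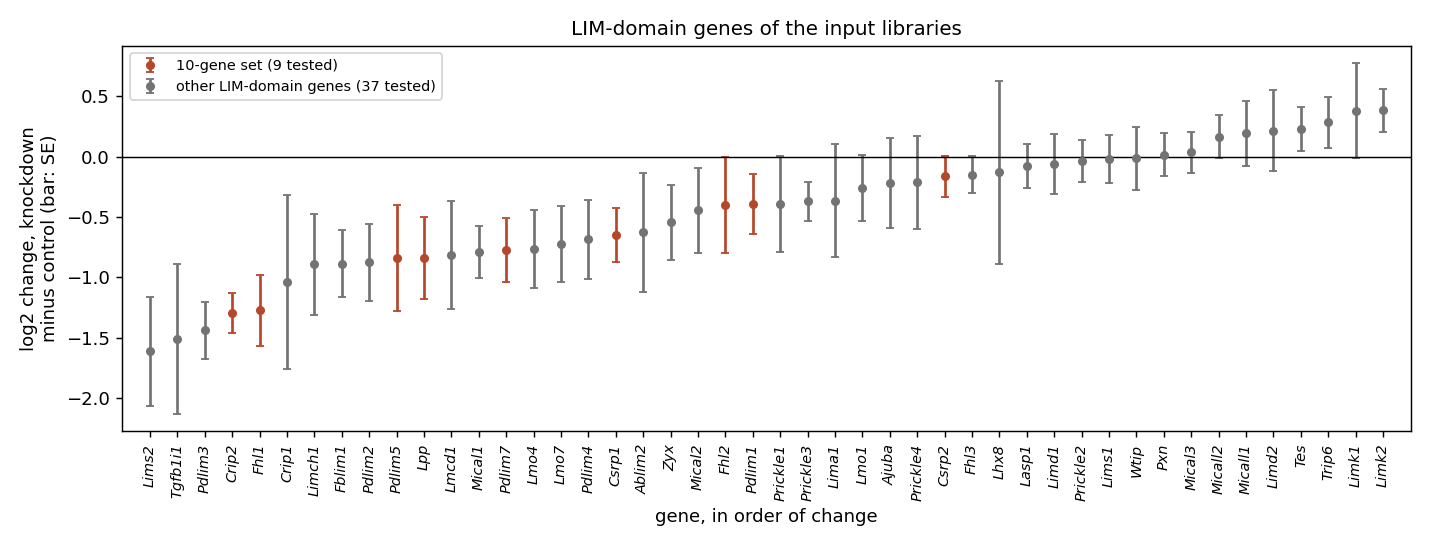
Log2 change with its SE for the 9 tested genes of the set and the 37 other LIM-domain genes that passed the filter, in order of change. The 9 lie between -1.29 and -0.16, within the range of the other genes, which runs on both sides of 0.

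Partners and regulators of these proteins were lower in part. Actn1, the non-muscle alpha-actinin that several of them bind, stood at 208, 227 and 391 FPKM in knockdown libraries and at 444, 588 and 583 FPKM in controls (log2 -1.01, SE 0.296), without overlap. Myocd, myocardin, stood at 6.01, 2.57 and 7.35 FPKM in knockdown libraries and at 12.4, 11.3 and 10.9 FPKM in controls (log2 -1.08, SE 0.323), also without overlap. Srf, serum response factor, stood at 15.5, 10.2 and 32.4 FPKM in knockdown libraries and at 24.1, 25.2 and 24.9 FPKM in controls and overlapped, as did Mrtfa, the actin-sensing cofactor of Srf (log2 0.08, SE 0.180, or -0.028 without knockdown library 1). The list of partners and regulators holds 14 genes of the table, 12 of them with a negative change, against 51.4% of all genes tested (median -0.66). In limma 0 passed after adjustment, and 5 were lower at an unadjusted p under 0.05, as were 6.95% of all genes tested. Without knockdown library 2 the change of Myocd was -0.71 and that of Srf -0.13.

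The ac4C lists asked which transcripts carried the modification, and Fhl1 was the one gene of the set with a peak in more than 1 list of a group once peaks of a shared p-value were set aside. In control lists 1 and 2, 26881 and 27673 peaks carry 1 identical p-value each, 0.045 and 0.046, and the other 3117 and 1920 peaks do not. Ldb3 was covered by 5 and 2 such peaks, 1500 and 5747 nt of exon blocks, and by no other peak, which makes 2 genes of the set with a peak in at least 2 control lists as deposited, and 0 after knockdown. Fhl1 had 1 peak in each of the 3 control lists and none in the 3 knockdown lists. This pattern was found for 0.491% of the 13450 tested genes, 66 in number. Tes, a LIM-domain gene outside the set, had the reverse, a peak in 3 knockdown lists and in 0 control lists. How many genes had that reverse pattern was not counted. With the shared p-values set aside, a peak in at least 2 of 3 lists was present for 0 of the 9 tested genes after knockdown and 1 in controls, against 12.2% and 13.0% of all tested genes. An exact permutation test of 3 against 3 libraries cannot go below 0.1, and none was made.

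The Fhl1 peaks lie on chromosome X, plus strand, in the positions of the deposited lists, for which rn6 is the rat build named in the submitters' processing notes. Control list 1 has chrX:159172286-159172524 with a p-value of 3.2e-33 from the authors, rank 245 in that list. Control list 2 has chrX:159172018-159172494 (5e-50, rank 173), and control list 3 has chrX:159172018-159172226 (2e-38, rank 169 of 3479). The peaks of lists 1 and 3 each share 209 nt with that of list 2 and lie 59 nt apart from each other, in a region of 507 nt. The input level of Fhl1 was 0.418 of the control level after knockdown, and its part in the peak lists was not tested.

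**Figure D5:**
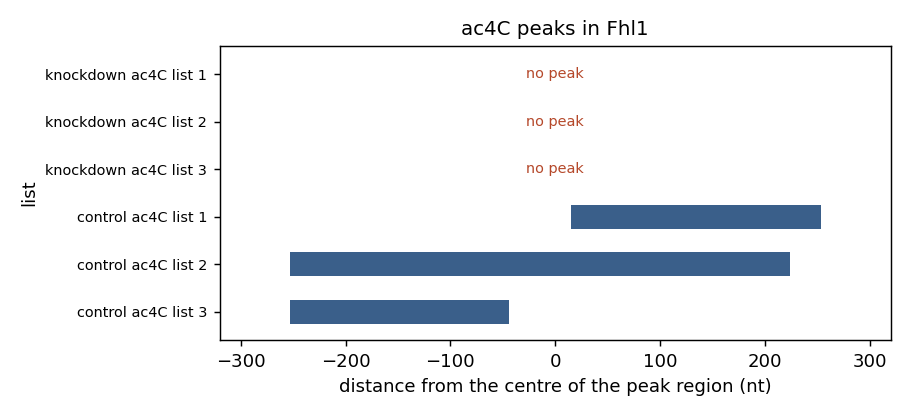
Extent of the Fhl1 ac4C peaks in the 3 knockdown and 3 control lists, as distance in nt from the centre of the region they cover. The 3 control lists have 1 peak each within 507 nt and the 3 knockdown lists have none.

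Csrp1 had a peak in 1 list of each group. In knockdown list 2 it was chr13:52574696-52574874 (p-value 1.6e-55, rank 108 of 2658) and in control list 3 chr13:52574874-52575051 (2e-26, rank 233), neighbouring peaks that share 1 nt. Pdlim7 had a peak in knockdown list 3 alone, at chr17:9668504-9668682 (1.2e-05, rank 1450 of 2592). Csrp2, Crip2, Fhl2, Pdlim1, Pdlim5 and Lpp had none in any of the 6 lists. In all, 3 of the 9 tested genes had a peak of their own p-value in at least 1 list, against 47.6% of all tested genes.

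None of the 10 genes had a NAT10 peak in any of the 3 RIP lists, which held 2268, 1993 and 1773 peaks. Of all tested genes, 5.93% had one in at least 1 list and 3.88% in at least 2, so a count of 0 among 9 lies near this background. The 522 genes with a NAT10 peak in at least 2 lists had a median recovered gene length of 4980 nt, against 2054 nt over all tested genes and 714 to 2650 nt for the 9. Their median control level was 35.9 FPKM, against 9.77 FPKM over all tested genes and 151 FPKM for the 9. The part of length and level in these counts was not tested. Among the other LIM-domain genes, Lmo7 and Prickle1 had NAT10 peaks in all 3 lists. Among the listed partners Actn1, Actn4, Flna, Tpm2 and Vcl did, and the highest log2 enrichment of an Actn1 peak was 1.11, 1.01 and 1.01 in RIP libraries 1 to 3, from the authors' lists.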

How the data were processed

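Per the submitters' processing notes, the tools were HOMER 4.10.4, DESeq2, featureCounts 1.6.3, cutadapt 2.5 and HISAT2 2.1.0, and the builds rn6, GRCm38 and GRCh38, with no step named for any. The authors deposited FPKM per gene for 6 input libraries, 1 ac4C peak list per library with a p-value per peak, and 1 NAT10 RIP list per library with a p-value and a log2 enrichment for each peak. For peak calling, the tool and the control of the enrichment were not given in the sources used here. No depth comes with these lists.

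Genes with a mean of at least 1 FPKM were tested with limma 3.58.1 (R 4.3.3) on the scale log2(FPKM + 1), with a trended prior variance, a two-sided test of knockdown minus control and Benjamini-Hochberg adjustment over 13450 genes. Whole fragments were recovered from FPKM by a search over gene lengths of 20 to 130000 nt (relative tolerance 2e-08) for 21401 of 21401 genes above 0, and for 0 of 500 genes with altered values. They give depth and entered a voom fit. The limma fit was also run on simulated counts of independent replicates with a common spread. These libraries differ from that setting, so nothing about them is read from that run. Peaks were joined by Ensembl gene ID, with 1 added to each start. Members and lists were chosen with earlier results of these data known. The genes to name were Nat10, the 10 members, the 4 most negative and 4 most positive other LIM-domain genes, and Actn1, Srf, Myocd and Mrtfa. Of the lists' symbols, 6 had no match (Ablim1, Palld, Mrtfb and the markers Pecam1, Myh2 and Ttn), so marker sums leave these out. The peak genes Lmo7, Prickle1, Actn4, Flna, Tpm2 and Vcl and the relative Csrp3 were named after their values were seen. So were the markers Tagln, Acta2, Cnn1, Synpo2 and Lum. Pseudocount, filter, scaling, weights, a replicate term, averaging of control libraries 2 and 3 and each library left out were tried.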

Additional observations from a re-analysis of the deposited data

How the results depend on the processing

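The number of genes called by limma was 0, also with another pseudocount, filter or scaling, with voom and with control libraries 2 and 3 averaged. Averaging this close pair cut the lower genes whose limma p was below 0.05 before adjustment from 935 to 477. The higher ones fell from 744 to 346, while 5 of the 9 members stayed among the lower. That fit also has fewer control values. Library quality weights called 335, of which 215 were lower (1.60% of the genes tested), Fhl1 and Crip2 among them. With 1 library left out the count was 0 to 1. The median of the LIM-domain genes was -0.95 to -0.49 and that of the other LIM-domain genes -0.43 to -0.17 with 1 library left out. Without control library 1 and knockdown library 2 together, a choice made after seeing the data, the medians were -0.42 and -0.04. Scaling to equal totals gave -0.62 and -0.15, where the median of all genes moved to 0.12 and the genes at an unadjusted p under 0.05 to 569 lower and 1124 higher, against 935 and 744. With no filter the median of the other genes was -0.046, over 56 genes. Of 144 values of members under these alternatives, 140 kept direction and side of the threshold, Fhl1 and Crip2 passed with quality weights, and Fhl2 turned positive at 0.086 when knockdown library 2 was left out (lowest with 1 library left out -0.71) and without both libraries (0.04). Of 208 values of the other named genes, an addition made after seeing the data, 202 kept direction and side, Nat10, Actn1, Lims2 and Pdlim3 passed with quality weights, Limk1 turned to -0.06 without knockdown library 2 (highest with a library left out 0.60) and Mrtfa to -0.028 without knockdown library 1 (highest 0.271, without both libraries). The cause was not tested. With the replicate block limma called 0 genes, 675 were lower and 500 higher at an unadjusted p under 0.05, and 3 of the 9 members were among them. Same-numbered libraries deviated from their group means with correlations of -0.21, -0.28 and 0.18, and 1 of 6 libraries correlated best with its own number, so the numbers were not taken as pairs. Members with an ac4C peak in at least 2 of 3 lists numbered 0 after knockdown and 2 in controls as deposited, and 1 in controls without the shared p-values, at a p-value of at most 0.01 or in all 3 lists, and 1 to 2 with 1 control list left out. No member had a NAT10 peak, so stricter settings and overlaps with ac4C peaks could give only 0. Ldb3, at 2 to 61 fragments, is limited by depth.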

Other observations

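The mean of the standardized profiles of the 9 tested LIM-domain genes was lowest in knockdown library 2 and highest in control library 1, though single genes departed from it, such as Fhl2, highest in knockdown library 1, and Lpp, lowest there. The genes nearest to this mean profile, among 9317 with a mean of at least 5 FPKM, were Specc1, a cytoskeletal coiled-coil protein (Pearson r = 0.9995), ENSRNOG00000029912, whose symbol the table gives as a date (0.998), Cd200, a membrane glycoprotein (0.997), Anxa6, an annexin (0.996), and Cap1, an actin monomer-binding protein (0.996). These values describe 6 points that share the group difference, and genes chosen as the nearest of many have high values by construction. Specc1 stood at 29.4, 20.8 and 38.6 FPKM in knockdown libraries and at 53.0, 51.4 and 47.1 FPKM in controls. Cd200 stood at 70.7, 40.1 and 97.5 FPKM in knockdown libraries and at 171, 139 and 138 FPKM in controls.

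The start windows of the set fell on both sides of the 51.7% median G and C content of all windows. The upstream Fhl1 window had 44.7% and the downstream one 50.7%, while Crip2, Pdlim7, Pdlim1, Pdlim5, Csrp2 and Csrp1 had 65.7% to 73.3%. Other LIM-domain genes had ac4C peaks in both groups. Without the shared p-values, 9 of 58 had a peak in at least 2 knockdown lists and 5 of 58 in at least 2 control lists. All of these were among the 37 that passed the expression filter. Of all tested genes, which passed the same filter, 12.2% and 13.0% had such peaks. Set against the 37, the knockdown count lies above that background and the control count near it, and the difference was not tested.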
